A study of Homo sapiens with 6 samples.

Results

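The S100 genes of chromosome 1q21 were followed in MB157, an established human cell line of triple-negative breast cancer, a subtype that lacks hormone receptors and HER2 amplification. The members were listed by name, with earlier results of these data known: 9 S100 genes and ENSG00000272030. That gene row lies opposite S100A1 and overlaps S100A13 on its strand. The members are 10 of the 57209 gene rows of each count table. The libraries came from MB157 cells whose titles name Cas9, grown in puromycin, and 3 had received an sgRNA against SOX9 and 3 a control sgRNA. Per the series text, cells were taken 4 days after the sgRNA and sorted for the top 50% of sgRNA expression, so each library came from a sorted population. That text calls the cells stable expressers of SOX9, where the titles and the culture medium speak of Cas9 cells. The labels call the 3 libraries of a group technical replicates, so p-values measure the spread between libraries and not between independent experiments.

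S100 proteins are small calcium-binding proteins found in vertebrates. Most pair with themselves, bind calcium through EF-hand loops, and then dock onto other proteins such as annexins, myosins and p53. Most of the human S100 genes stand side by side in 1q21, and several of them are known in breast cancer for ties to cell motility and invasion. SOX9, an HMG-box transcription factor, is active in mammary stem and progenitor cells, and the comparison asked which genes depend on it.

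With the SOX9 sgRNA, the counts named for S100A13, ENSG00000272030 and S100A1, which share 1 locus, fell, and the counts named for S100A4 rose. S100A13 averaged 224 ± 14.5 CPM (counts relative to the library total, scaled between libraries) in SOX9 sgRNA libraries and 1904 ± 174 CPM in control libraries (SD, n = 3 each). S100A4 averaged 202 ± 29.4 CPM with the SOX9 sgRNA and 97.7 ± 23.7 CPM with the control sgRNA. The counts of S100A10, S100A11, S100A14 and S100A2 did not pass the test, and those of S100A6 and S100A16 were too few to be tested.

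Totals ran from 776125 to 1018854 counts in SOX9 sgRNA libraries and from 777960 to 881655 in control libraries, which is shallow. SOX9 itself held 37, 39 and 60 counts in SOX9 sgRNA libraries and 38, 52 and 44 in control libraries, and the groups overlapped (edgeR log2 fold change -0.21, SE 0.26, adjusted p = 0.70). In every library 80.9% to 81.5% of all counts lay in rows whose exons overlap an exon on the other strand. Such rows were 11223 of all 57209 and 5003 of the 7959 that were tested. GAPDH, an abundant glycolytic enzyme gene, had 66 to 126 counts per library, while ENSG00000269968 opposite it had 7249 to 11002. The counts were made per strand, and whether a count measures the gene it is named for or the gene opposite was not tested. Of 6 epithelial marker genes all had counts, 699 to 950 summed with the SOX9 sgRNA and 703 to 870 with the control sgRNA. Most of that sum was KRT8, which was not called (edgeR log2 fold change 0.11, adjusted p = 0.57), while KRT19 (-0.73, SE 0.13, edgeR adjusted p = 1.83e-05) and KRT7 (-0.92, SE 0.29, edgeR adjusted p = 0.018) were lower. EPCAM stood at -0.65 and was not called, with groups that did not overlap (edgeR adjusted p = 0.10). KRT8 and KRT7 have an exon opposite, and KRT19 and EPCAM have none. Stromal markers summed to 4 to 9 counts with the SOX9 sgRNA and 2 to 4 with the control sgRNA, with LUM and COL3A1 at 0. Of the immune markers, CD3E and LYZ were at 0 and PTPRC had 1 count, while CD68, which has an exon opposite, had 31, 32 and 36 counts with the SOX9 sgRNA and 18, 11 and 21 with the control sgRNA. The part of these marker counts in the results was not tested.

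The locus of the falls was read exon by exon, since fragments that overlap several rows count for each of them. Coordinates of gene rows are GRCh37. S100A1 (ENSG00000160678) lies on the plus strand at chr1:153600402-153604513. S100A13 (ENSG00000189171) lies on the minus strand at chr1:153591263-153606568 and spans it. ENSG00000272030, an antisense RNA row, lies on the minus strand at chr1:153603914-153606873, and a further minus-strand row without a symbol, ENSG00000271853, at chr1:153598808-153606816. S100A13 faces S100A1 exons over 239 bases, of which 207 are a single block at chr1:153602926-153603132. ENSG00000272030 faces S100A1 over 318 bases, of which 314 are a block at chr1:153603988-153604301. ENSG00000271853 faces S100A1 over only 32 bases, although it shares 878 exon bases with S100A13 and 458 with ENSG00000272030 on its own strand.

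The coding sequence of S100A1 shows how these rows face it. In GENCODE 29 (GRCh38) the coding part of the S100A1 transcript used is 2 exons of 141 bases each. In the sequences shown here, 5′ to 3′ on the plus strand, capitals mark bases that lie opposite an exon of S100A13 in coding exon 1 (chr1:153630522-153630662) and opposite an exon of ENSG00000272030 in coding exon 2 (chr1:153631698-153631838).
S100A1 coding exon 1: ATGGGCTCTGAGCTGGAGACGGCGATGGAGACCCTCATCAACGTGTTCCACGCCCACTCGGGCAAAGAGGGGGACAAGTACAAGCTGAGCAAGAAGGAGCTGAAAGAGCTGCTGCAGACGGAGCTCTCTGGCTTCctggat
S100A1 coding exon 2: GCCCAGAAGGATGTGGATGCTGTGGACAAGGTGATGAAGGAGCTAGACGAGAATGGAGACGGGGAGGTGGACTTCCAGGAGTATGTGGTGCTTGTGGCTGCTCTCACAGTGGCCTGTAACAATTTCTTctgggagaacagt
Coding exon 1 lies opposite S100A13 over 135 bases and coding exon 2 opposite ENSG00000272030 over 128. No base of either lies opposite an exon of ENSG00000271853.

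**Figure D1:**
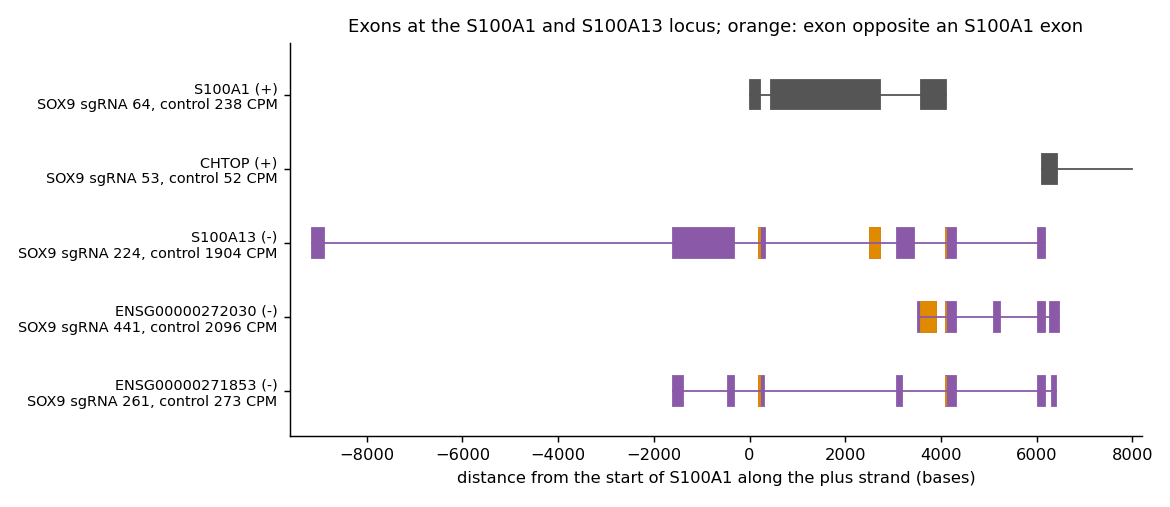
Exons (boxes) of 5 rows at the S100A1 locus on GRCh37, by distance in bases from the start of S100A1, with plus-strand rows in grey and minus-strand rows in purple; CHTOP runs past the right edge. Orange marks exon bases opposite an S100A1 exon, and each label gives the mean CPM (n = 3 per group): S100A13 and ENSG00000272030, with large orange blocks, stand at 224 and 441 CPM with the SOX9 sgRNA against 1904 and 2096 in controls, while ENSG00000271853 stands at 261 against 273.

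S100A13 encodes a protein known for its part in the release of FGF1 and interleukin-1 alpha, which leave the cell without a signal peptide. Its row held 185, 184 and 216 counts in SOX9 sgRNA libraries 1 to 3, against 1551, 1358 and 1334 in control libraries 1 to 3. The groups stood far apart and the libraries within a group were close. Mean CPM was 8.50-fold lower with the SOX9 sgRNA (edgeR log2 fold change -3.08, SE 0.090, adjusted p = 3.58e-41). Fewer cells with the RNA counted in this row and less of that RNA per cell cannot be told apart in bulk libraries. That holds for every row that follows, and whether this RNA came from S100A13 or a gene opposite was not tested. By p-value S100A13 ranked 2 among 7959 genes tested.

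ENSG00000272030 held 331, 376 and 447 counts in SOX9 sgRNA libraries, against 1682, 1536 and 1455 in control libraries. These groups did not overlap either, and the fall was smaller than that of S100A13. It averaged 441 ± 45.3 CPM with the SOX9 sgRNA and 2096 ± 148 CPM with the control sgRNA (SD, n = 3 each), a 4.76-fold lower level (edgeR log2 fold change -2.24, SE 0.082, adjusted p = 2.85e-35).

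S100A1, best known from heart and skeletal muscle, where its protein acts on calcium channels and pumps, had 64, 56 and 42 counts with the SOX9 sgRNA, against 180, 194 and 158 with the control sgRNA. SOX9 sgRNA library 3 was the lowest of the 6, at 40.9 CPM, while SOX9 sgRNA libraries 1 and 2 stood at 77.1 and 72.8 and no control library was below 227. The plus-strand row thus fell together with both rows that face its coding exons (edgeR log2 fold change -1.89, SE 0.18, adjusted p = 9.55e-14).

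ENSG00000271853 did not pass the test. It held 194, 225 and 263 counts with the SOX9 sgRNA, against 224, 191 and 192 with the control sgRNA, and the groups overlapped (edgeR log2 fold change -0.06, SE 0.13, adjusted p = 0.84). CHTOP, which encodes a chromatin-bound protein with a role in mRNA export, starts on the plus strand at the far end of the locus, opposite ENSG00000272030 over 192 bases, ENSG00000271853 over 161 and S100A13 over 44. Its row held 47, 37 and 55 counts with the SOX9 sgRNA and 35, 60 and 23 with the control sgRNA (edgeR log2 fold change 0.01, SE 0.28, adjusted p = 0.99).

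Ratios within a library do not depend on how libraries are scaled, and they were compared with a two-sided exact permutation test, in which 3 libraries against 3 cannot give a p below 0.10. The log2 ratio of S100A13 to ENSG00000271853 was -0.21 ± 0.13 in SOX9 sgRNA libraries and 2.80 ± 0.021 in control libraries (SD, n = 3 each, exact p = 0.10). S100A13 thus stood 9 to 47 counts below ENSG00000271853 in each SOX9 sgRNA library, and 1142 to 1327 counts above it in each control library. The log2 ratio of S100A13 to S100A1 was 1.86 ± 0.43 with the SOX9 sgRNA and 2.99 ± 0.16 with the control sgRNA, again without overlap (n = 3 each, exact p = 0.10). The log2 ratio of ENSG00000272030 to S100A1 was 2.83 ± 0.52 with the SOX9 sgRNA and 3.13 ± 0.13 with the control sgRNA, with overlap (n = 3 each, exact p = 0.40). Of the 6 ratios compared, this was the only one whose groups overlapped, and the exact p of each of the other 5 was 0.12 after Benjamini-Hochberg adjustment over the 6.

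The smaller fall of ENSG00000272030 was set beside the counts it holds beyond those of S100A13. That excess was 146, 192 and 231 counts in SOX9 sgRNA libraries and 131, 178 and 121 in control libraries. As CPM of all counts it was 176 to 247 with the SOX9 sgRNA and 156 to 202 with the control sgRNA, so the ranges overlapped. Shared fragments make the excess a lower bound on the fragments that ENSG00000272030 did not share with S100A13.

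**Figure D2:**
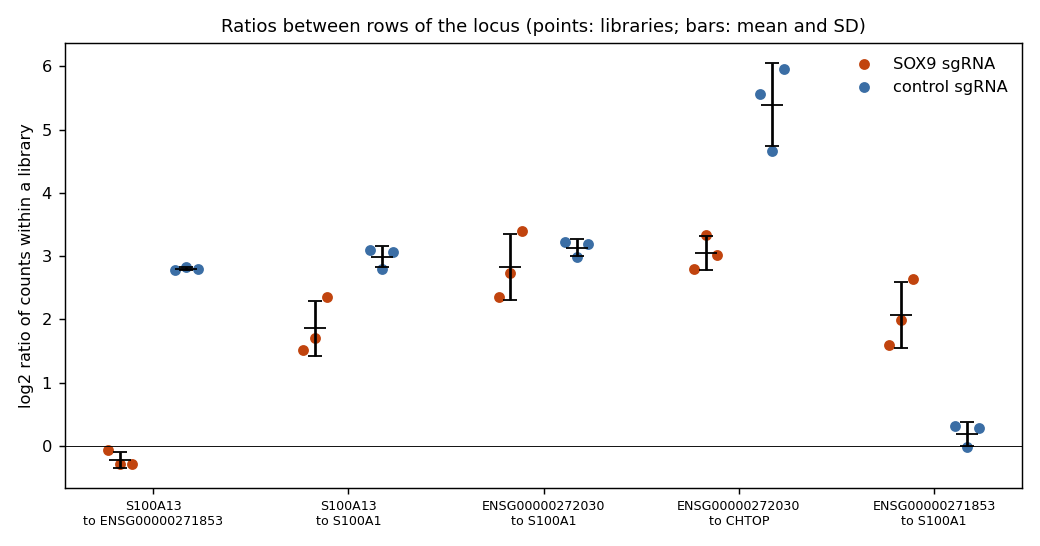
Log2 ratio of raw counts (0.5 added) between rows of the locus within each library; points are libraries, bars the mean and SD (n = 3), with the SOX9 sgRNA left of the control sgRNA. S100A13 stands at -0.21 relative to ENSG00000271853 with the SOX9 sgRNA against 2.80 in controls, and the ratio of ENSG00000272030 to S100A1 overlaps between groups.

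S100A4, also called metastasin, binds the heavy chain of non-muscle myosin and is tied to the motility of tumour cells. Its row (ENSG00000196154, minus strand, chr1:153516089-153522612) held 168, 133 and 238 counts with the SOX9 sgRNA, against 85, 86 and 49 with the control sgRNA. Control library 3 was the lowest, at 70.5 CPM, and the lowest SOX9 sgRNA library stood at 173 CPM, above the highest control library at 113. Mean CPM was 2.07-fold higher with the SOX9 sgRNA (edgeR log2 fold change 1.03, SE 0.17, adjusted p = 3.36e-06). No annotated exon lies opposite S100A4, and whether its counts measure S100A4 RNA was not tested. S100A3, which starts and ends inside an intron of S100A4 on the same strand and shares no exon base with it, had 4, 2 and 3 counts with the SOX9 sgRNA and 0, 0 and 1 with the control sgRNA, too few to be tested.

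The members that partner annexins had few counts. S100A10, which binds annexin A2 and has lost the ability to bind calcium, had 10, 12 and 22 counts with the SOX9 sgRNA and 3, 7 and 18 with the control sgRNA. S100A11, a partner of annexin A1, had 15, 14 and 29 counts with the SOX9 sgRNA and 19, 24 and 22 with the control sgRNA. For both genes the groups overlapped, and edgeR gave log2 fold changes of 0.32 ± 0.53 for S100A10 (SE, adjusted p = 0.76) and -0.38 ± 0.36 for S100A11 (SE, adjusted p = 0.57). S100A10 lies at chr1:151955391-151966866 and S100A11 at chr1:152004982-152020383.

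Members known from epithelia also had few counts. S100A14 lies at chr1:153586731-153589462 and S100A2 at chr1:153533584-153540366. S100A14 had 16, 18 and 20 counts with the SOX9 sgRNA and 16, 13 and 23 with the control sgRNA. S100A2, a p53-binding member of basal epithelial cells, had 10, 14 and 14 counts with the SOX9 sgRNA and 10, 20 and 9 with the control sgRNA. The libraries of both groups were interleaved for both genes, and edgeR gave log2 fold changes of -0.17 ± 0.39 for S100A14 (SE, adjusted p = 0.86) and -0.22 ± 0.47 for S100A2 (SE, adjusted p = 0.84).

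S100A16 (chr1:153579362-153585621), a widely expressed member, had 4, 2 and 3 counts with the SOX9 sgRNA and 5, 10 and 5 with the control sgRNA. S100A6, or calcyclin (chr1:153507075-153508720), had 1, 2 and 2 counts with the SOX9 sgRNA and 1, 0 and 1 with the control sgRNA. Both failed the filter on low counts, and a difference was not detectable at counts this low. Why the counts were low was not tested. The 0 in control library 2 allows up to 3 counts, or 3.40 CPM of all counts, by counting error only. The row that faces S100A6 over 23 bases, ENSG00000238279, had 1 count in all 6 libraries together.

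**Figure D3:**
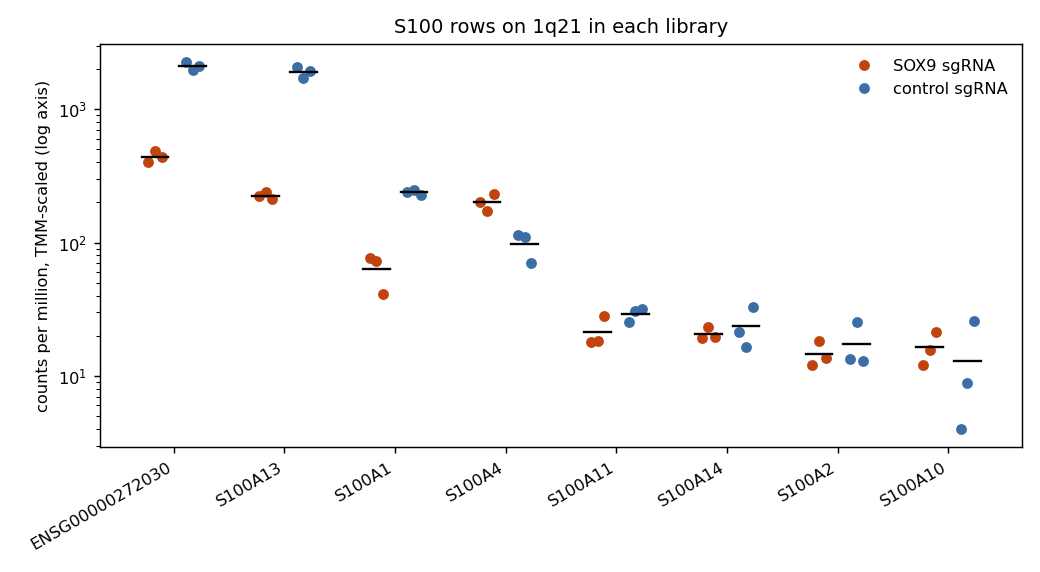
TMM-scaled CPM (log axis) of the 8 tested members in each of 6 libraries, with the SOX9 sgRNA left of the control sgRNA and the mean as a bar. ENSG00000272030, S100A13 and S100A1 are lower and S100A4 is higher in every SOX9 sgRNA library than in any control library, while the groups of the other 4 overlap.

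Of the 10 members, 8 passed the filter, of which 3 were lower and 1 was higher, with a median log2 fold change of -0.30. Among all 7959 genes tested, 6.02% were lower, 2.99% higher and 9.01% either, and the median was 0.01. The 3 lower members share exons or face each other, so they are not separate observations of a fall. The members were also chosen with earlier results of these data known, so the number called among them is not a test of the family. In 24.5% of all genes tested the CPM of the groups did not overlap, as for these 4 members. Among 2956 tested genes with no exon on the other strand, which include S100A4, 2.3% were higher. Among 5003 with one, which include the 3 lower members, 7.86% were lower.

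**Figure D4:**
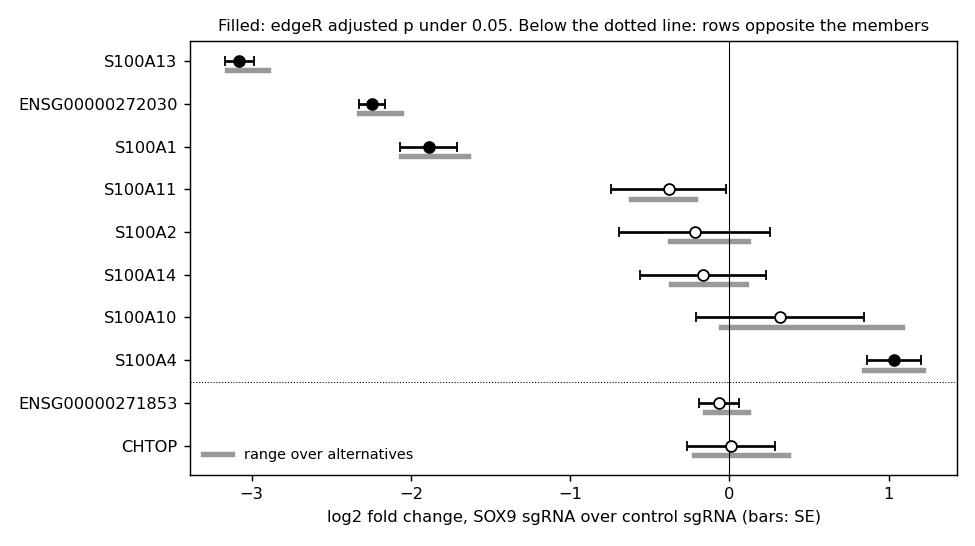
Log2 fold change of SOX9 sgRNA over control sgRNA with its SE for the 8 tested members and 2 other tested rows of the locus (below the dotted line), filled where the edgeR adjusted p was under 0.05. Grey bars give the range over 12 or 13 alternative analyses: for S100A13, ENSG00000272030, S100A1 and S100A4 it stays on 1 side of 0.

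Counts of different members were compared per length, as mean CPM per kilobase of annotated exon. Whether an order on this scale follows the expression of the members was not tested. With the SOX9 sgRNA the order was ENSG00000272030 at 418, S100A4 at 197, S100A13 at 87.6, S100A11 at 31.6 and S100A14 at 16.2, with S100A1 between these last, and then S100A10 at 10.6 and S100A2 at 9.33. With the control sgRNA it was ENSG00000272030 at 1989, S100A13 at 744, S100A4 at 95.3, S100A1 at 78.6, S100A11 at 42.9 and S100A14 at 18.5, then S100A2 and, lowest, S100A10 at 8.38. In libraries on this scale, S100A1 overlapped S100A14 with the SOX9 sgRNA and S100A4 with the control sgRNA, and S100A10 overlapped S100A2 in both. S100A14 stood above S100A10 and S100A2 in every SOX9 sgRNA library and overlapped them in control libraries. S100A4 thus stood above S100A13 in the SOX9 sgRNA libraries and below it in the control libraries. The lengths count every annotated exon base, including a long block of S100A1 that other S100A1 transcripts splice in part.

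The make-up of the family's summed counts differed accordingly. S100A13, ENSG00000272030 and S100A1 together held 68.2% to 76.0% of the members' counts in SOX9 sgRNA libraries and 95.1% to 96.1% in control libraries. S100A13 alone held 22.2% ± 1.13 with the SOX9 sgRNA and 43.0% ± 1.00 with the control sgRNA, and S100A4 held 20.1% ± 3.39 with the SOX9 sgRNA and 2.21% ± 0.55 with the control sgRNA (SD, n = 3 each, exact permutation p = 0.10 for each gene, 0.125 after Benjamini-Hochberg adjustment over the 10 members). Shares of 1 sum depend on each other, so a fall of the 3 rows by itself raises the shares of the rest. S100A11, S100A14 and S100A2 also held larger shares with the SOX9 sgRNA (exact permutation p = 0.10 each), although their log2 fold changes were negative. S100A11 held 2.13% with the SOX9 sgRNA and 0.66% with the control sgRNA. The mean CPM of S100A4 rose 2.07-fold, less than its share. Fragments shared by S100A13 and ENSG00000272030 enter the members' sum once for each row. Without ENSG00000272030 in the sum, the share of S100A13 differed by -42.1 percentage points (SOX9 sgRNA minus control), against -20.8 with it, and that of S100A4 by 31.4, against 17.9. The other 7 members together held 195 to 328 counts in SOX9 sgRNA libraries and 127 to 160 in control libraries, of which S100A4 gave 133 to 238 with the SOX9 sgRNA and 49 to 86 with the control sgRNA.

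The 3 tested rows most like S100A13 in their pattern over the 6 libraries lay on other chromosomes. Likeness was the root mean square difference of log2 CPM after each row was centred on its own mean. It was 0.21 for CEP20, a gene of centriolar satellites with 8 counts over the SOX9 sgRNA libraries and 99 over the control libraries. It was 0.25 for C12orf60, with 47 counts over the SOX9 sgRNA libraries and 470 over the control libraries, and 0.27 for ENSG00000269495, with 7 and 70 in the same order of groups. By the same measure ENSG00000272030 stood at 0.42 and S100A1 at 0.63 from S100A13.

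Other S100 genes had few or no counts, and whether that reflects their expression was not tested. Of 13 further entries, 8 had no count in any library, among them S100A7, S100A8, S100A12 and S100B. S100P had 2, 3 and 3 counts with the SOX9 sgRNA and 1, 7 and 4 with the control sgRNA, and S100G had 7, 5 and 6 with the SOX9 sgRNA and 2, 6 and 8 with the control sgRNA. S100PBP, which encodes a nuclear protein that binds S100P and is not itself an S100 protein, was the only entry tested. It was not called (edgeR log2 fold change 0.55, SE 0.43, adjusted p = 0.45), and no S100 gene beyond the members was tested. Of 80 other rows that start within the stretch from S100A10 to ENSG00000272030, 67 had no count and 2 were tested, ENSG00000271853 and CHTOP. None of the genes of the epidermal differentiation complex, which lies between the S100 genes and encodes proteins of the cornified layer of skin, had enough counts to be tested.

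Proteins that S100 members bind were read from lists. Among 17 tested S100 partners none was called, with a median log2 fold change of 0.12. The S100A6-binding protein gene CACYBP stood at 0.66 (SE 0.24, edgeR adjusted p = 0.058) and the myosin gene MYH10 at 0.76 (SE 0.28, edgeR adjusted p = 0.058). The tropomyosin gene TPM1 stood at 1.26 (SE 0.56, edgeR adjusted p = 0.079) on 51 counts with the SOX9 sgRNA and 15 with the control sgRNA, and STUB1, a ubiquitin ligase gene, at -0.36 (SE 0.16, edgeR adjusted p = 0.17). CACYBP, MYH10 and TPM1 were called higher when libraries were scaled by their totals, which raised the median of all genes to 0.18. Of 3 tested annexin genes none was called: ANXA2 stood at -0.42, ANXA11 at 0.38 and ANXA5 at 0.15, with SEs of 0.33 to 0.39. Among 12 tested genes of other EF-hand proteins 1 was lower and none higher, with a median of 0.04. That gene was CAPN1, which encodes the large subunit of a calcium-activated protease (-0.92, SE 0.29, edgeR adjusted p = 0.020, 87 counts with the SOX9 sgRNA and 144 with the control sgRNA). It was not called with library totals, with DESeq2, or without control library 1 or SOX9 sgRNA library 2. CALU, HPCAL1 and MYL12B, the next by p-value, stood at -0.72, 0.74 and -0.66 and were not called.

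Promoter windows from RefSeq (GRCh38.p14), 250 bases before to 50 after a start site, were found for all 9 S100 members, 13 windows in all. SOX factors bind DNA around short motifs that were searched as plain letters on both strands. The letters ACAATG were in 10.8% of 35116 promoter windows and in 0 of the 13. The letters ACAAAG were in 16.1% of all windows and in 0 of the 13. The letters AACAAT, which can overlap the first motif, were in 10.1% of all windows and in 0 of the 13. The letters TATAAA, read on the sense strand, were in 2 of the 13 windows and in 7.33% of all. The windows of S100A1 (plus strand, chr1:153628184-153628483) and S100A4 (minus strand, chr1:153545757-153546056) are shown because the counts of these genes moved in opposite directions. Capitals mark TATAAA, which starts 31 bases before the S100A4 start site. The other window with TATAAA, not shown, is of S100A13, whose counts fell, and the letters start 29 bases before its start site there. TATAAA thus occurred in a window of a member that rose and of a member that fell.
S100A1 promoter: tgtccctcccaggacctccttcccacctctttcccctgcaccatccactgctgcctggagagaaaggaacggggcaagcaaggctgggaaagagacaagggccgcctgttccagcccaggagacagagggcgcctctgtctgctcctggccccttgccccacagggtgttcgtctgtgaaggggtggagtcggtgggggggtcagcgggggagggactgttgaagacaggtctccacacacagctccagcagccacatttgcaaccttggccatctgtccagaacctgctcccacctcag
S100A4 promoter: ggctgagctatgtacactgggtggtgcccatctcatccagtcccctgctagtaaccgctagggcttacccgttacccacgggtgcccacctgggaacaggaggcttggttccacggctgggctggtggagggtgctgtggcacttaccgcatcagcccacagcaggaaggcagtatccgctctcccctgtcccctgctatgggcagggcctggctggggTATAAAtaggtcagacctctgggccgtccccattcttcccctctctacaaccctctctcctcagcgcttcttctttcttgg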

How the data were processed

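The 6 RNA-seq libraries were made with a stranded kit, per the labels' protocols. The values are whole-number counts per gene, deposited by the authors as 1 unnormalized table per library. STAR 2.7.10a and featureCounts (Subread 1.6.2) were used on GRCh37, per the submitters' processing notes. Per the file headers, fragments were counted over exons of Ensembl release 75 genes with strand setting 1, and counted for every gene they overlap.

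Symbols were found for 51452 of 57209 rows. Exon overlaps were computed with bedtools 2.31.1. In R 4.3.3, edgeR 4.0.16 filtered genes with filterByExpr, scaled by TMM factors and ran the robust quasi-likelihood test of SOX9 sgRNA over control, with Benjamini-Hochberg adjustment over the 7959 genes tested and a threshold of 0.05. The fit was tested on simulated counts. Log2 fold changes carry a prior count of 2. CPM is scaled by TMM factors unless called CPM of all counts. No pair of libraries was a duplicate: chi-square per degree of freedom was 1.97 to 2.44 for pairs within a group. Floors and n = 3 cover counting error and library spread only. Alternatives were library totals, TMM factors from genes without an opposite exon, DESeq2 1.42.0, no or a stricter filter (30 counts in 3 libraries), a replicate block, no robust fit, and each library left out.

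The members and lists were chosen with earlier results of these data known. Of 136 list entries 134 were matched. The genes named were all members, the rows opposite them, other S100 genes with at least 10 counts, up to 4 tested genes of each list by adjusted p (up to 6 neighbours), and the 3 rows most like S100A13. Part of the marker lists is not reported here.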

Additional observations from a re-analysis of the deposited data

How the results depend on the processing

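S100A13, ENSG00000272030, S100A1 and S100A4 were called in the same direction in all 13 alternatives, with log2 fold changes from -3.16 to -2.89, -2.33 to -2.06, -2.06 to -1.64 and 0.85 to 1.21, and adjusted p of at most 6.86e-04. Scaling by library totals instead of TMM moved the median over all genes to 0.18, against 0.01, and 625 genes were higher and 249 lower, against 238 and 479. S100A4 stood at 1.21 and S100A13 at -2.89 there. DESeq2 called 130 genes higher and the fit without a filter 151. In the comparison lists 3 genes (CACYBP, MYH10, TPM1) were higher and 0 lower with library totals, 2 higher (CACYBP, MYH10) with the stricter filter, and 0 lower with DESeq2. Leaving out 1 library gave 0 to 1 higher (CACYBP) and 0 to 1 lower (CAPN1). Leaving out 1 library moved uncalled rows across 0: S100A10 ran from -0.055 to 1.08, S100A14 from -0.37 to 0.11, S100A2 from -0.37 to 0.11, ENSG00000271853 from -0.16 to 0.0011 and CHTOP from -0.22 to 0.37. ENSG00000271853 also turned with library totals (0.12), and CHTOP with TMM factors from genes without an opposite exon (-0.014) and with no filter (-0.019). The cause was not tested. Same-numbered libraries did not deviate together (correlations of -0.03 to 0.02 over 4337 genes), and with the replicate block 175 genes were higher and 399 lower, with S100A13 at -3.07 and S100A4 at 1.04 and no call of a member changed. Counts under about 30 per library limited what could be seen for 6 members.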
